A study of Mus musculus with 8 samples.

Results

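The 10 genes described here encode alpha and beta tubulins and the cytoplasmic actins, measured in mouse liver. They are the alpha tubulins Tuba1a, Tuba1b and Tuba1c, the beta tubulins Tubb2a, Tubb2b, Tubb4b, Tubb5 and Tubb6, and the actins Actb and Actg1. They were chosen by symbol from the 47719 genes of the deposited expression table, and each symbol matched 1 row. Tuba4a, the alpha tubulin gene with the highest level in control liver, is not among them and is described after them. RNA from whole liver of wild type C57BL/6 mice was sequenced in 8 libraries. An extended hepatectomy, an operation that leaves only a small remnant of liver, had been done 14 days earlier for 2 libraries and 2 days earlier for 4 libraries, and 2 libraries were from normal control mice aged 10 weeks. The study concerns human proliferating hepatocyte organoids, given encapsulated as a treatment for liver failure. Its design text names EMC-treated controls and eLO-treated mice at day 2 and eLO-treated mice alone at day 14, without spelling either abbreviation out. No label ties a day 2 library to EMC or eLO, so the day 2 libraries were kept as 1 group. Surgery and treatment cannot be told apart in either comparison with control, nor time and treatment between day 14 and day 2, where all libraries followed surgery. Day 2 replicate 1 carries day 1 in its title and day 2 in its age label, and the title of day 2 replicate 3 holds the letters TVR, which no label explains. Whether each library is a mouse of its own is not stated, and p-values cover only the spread among libraries.

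Microtubules are built from dimers of alpha and beta tubulin, and both families are made from several genes, called isotypes, whose proteins differ mostly in their acidic ends. In hepatocytes microtubules carry secretory vesicles towards the blood and membrane proteins towards the bile canaliculus, and they form the spindle when a cell divides. Beta and gamma actin, the products of Actb and Actg1, build the cortex beneath the plasma membrane, the microvilli and belt of the bile canaliculus and the contractile ring of dividing cells. Tubulin messages are also regulated by the amount of free tubulin, through the first codons of the reading frame, which the factor encoded by Ttc5 reads as the nascent protein leaves the ribosome. Actin genes are classical targets of the serum response factor SRF and its cofactor MRTF, which is released when free actin is used up.

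The starts of the tubulin reading frames are shown because they carry that regulatory element, and those of the actins, which do not, for contrast. That of Tubb6 is not shown. They were read from GENCODE transcripts on GRCm38, 5′ to 3′, with the first 4 codons in capitals.
Tuba1a: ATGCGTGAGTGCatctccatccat
Tuba1b: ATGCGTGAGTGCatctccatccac
Tuba1c: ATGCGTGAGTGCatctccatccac
Tubb2a: ATGCGCGAGATCgtgcacatccag
Tubb2b: ATGCGAGAGATCgtgcacattcag
Tubb4b: ATGAGGGAGATCgtgcacctgcag
Tubb5: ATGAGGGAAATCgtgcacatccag
Actb: ATGGATGACGATatcgctgcgctg
Actg1: ATGGAAGAAGAAatcgccgcactc
The 3 alpha tubulin genes share the same first 12 bases, and the actins begin with different codons at the end of the protein where beta and gamma actin are known to differ.

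The ends of the reading frames before the stop codon are shown for the closest beta tubulin pair, because they bear on how well reads can be assigned. Capitals mark the bases at which the pair differs, 3 of 42.
Tubb2a: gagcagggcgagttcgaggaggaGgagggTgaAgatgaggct
Tubb2b: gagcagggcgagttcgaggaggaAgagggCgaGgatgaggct
Coding sequences were 98.3% identical between Tuba1a and Tuba1b, 97.1% between Tuba1a and Tuba1c, 97.9% between Tuba1b and Tuba1c and 96.5% between Tubb2a and Tubb2b. All other pairs of beta tubulins were between 80.2% and 84.6% identical, and Actb and Actg1 were 88.7% identical. Windows of 100 bases found unchanged in another of the 10 genes made up 38.4% of the Tuba1a transcript, 52.3% of Tuba1b, 53.4% of Tuba1c, 35.9% of Tubb2a and 26.1% of Tubb2b. For the other 5 genes this share was 0%. Levels of the 3 alpha tubulins and of the Tubb2a and Tubb2b pair are therefore uncertain, since reads from shared stretches may have been divided between copies.

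The genes lie at separate or clustered loci of GRCm38. Tuba1a (ENSMUSG00000072235, 98949837 to 98953703), Tuba1b (ENSMUSG00000023004, 98931425 to 98934565) and Tuba1c (ENSMUSG00000043091, 99029891 to 99038110) are neighbours on chromosome 15. Tubb2a (34074274 to 34078007) and Tubb2b (34126748 to 34130466) are neighbours on chromosome 13. Tubb4b is on chromosome 2 at 25222160 to 25224702, Tubb5 on chromosome 17 at 35833921 to 35838306, Actb on chromosome 5 at 142903115 to 142906754 and Actg1 on chromosome 11 at 120345690 to 120348542.

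Values are FPKM, fragment numbers divided by gene length and library total, so levels may be compared between genes. Read counts are unknown. Total FPKM was 1298005 and 1050576 at day 14, 686332 to 1133922 at day 2 and 717258 and 731451 in control, and the commonest ratio of very low values put relative depth between 0.634 and 1.13 times that of control replicate 1. The hepatocyte markers Alb, Apoa1, Apob, Ttr, Cps1 and Serpina1a were present in all libraries, with summed levels of 53770 and 56261 FPKM at day 14, 36248 to 62110 FPKM at day 2 and 45235 and 47855 FPKM in control. Most of each sum came from Alb and Apoa1, and single markers differed. Cps1 averaged 261 FPKM at day 14, 259 FPKM at day 2 and 777 FPKM in control, while Apoa1 averaged 20393, 18480 and 8261 FPKM. In whole liver a larger share of one cell type and more RNA per cell cannot be told apart. The filter asked for 1 FPKM or more in 2 or more libraries, which 12340 genes met, and limma was run on their log2(FPKM + 1) values. All 10 members did. Tubb2b passed through its day 2 levels alone, so a difference at day 2 was built into its inclusion, while Tuba1a reached 1 FPKM in 7 libraries and the others in all 8.

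Tuba1b and Tuba1c had higher levels than Tuba1a in every library. Tuba1b, the main alpha tubulin of dividing cells, stood at 12.5 and 15.1 FPKM at day 14, at 72.2, 18.3, 209 and 199.996 FPKM for replicates 1 to 4 of day 2 and at 18.01 and 16.1 FPKM in control. Day 2 replicates 3 and 4 were far above the other libraries, replicate 1 lay between, and replicate 2 was just above the controls. At 2.29 ± 0.87 log2 units (SE) Tuba1b did not pass the test at day 2 against control (limma adjusted p = 0.0936).

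Tuba1c stood at 34.4 and 33.3 FPKM at day 14, at 102, 56.9, 143 and 129.7 FPKM at day 2 and at 21.4 and 22.8 FPKM in control. No group overlapped another. Tuba1c rose by 2.16 ± 0.36 log2 units at day 2 (limma adjusted p = 0.00794), to 108 ± 38.03 FPKM at day 2 (SD, n = 4) against 22.1 ± 1.01 FPKM in control (SD, n = 2).

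Tuba1a, best known from neurons, was low, at 0.614 and 1.58 FPKM at day 14, 9.27, 4.40, 6.89 and 16.5 FPKM at day 2 and 2.64 and 2.03 FPKM in control. All day 2 libraries were above all others. Tuba1a rose by 1.49 ± 0.44 log2 units at day 2 (limma adjusted p = 0.0441), the call nearest to the threshold of 0.05.

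Among the beta tubulins Tubb4b, a widely expressed isotype, was the most abundant on average in every group. It stood at 45.0 and 70.6 FPKM at day 14, at 309, 118, 394 and 463 FPKM at day 2 and at 67.2 and 64.0 FPKM in control. The day 2 libraries were all higher than the rest, and the day 14 libraries lay on both sides of the controls. Tubb4b rose by 2.11 ± 0.52 log2 units at day 2 (limma adjusted p = 0.026).

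Tubb5, a beta tubulin common in dividing cells, stood at 15.7 and 17.97 FPKM at day 14, at 164, 43.9, 159 and 227 FPKM at day 2 and at 25.5 and 23.98 FPKM in control. Day 2 replicate 2 was the lowest of its group here as for Tubb4b, Tuba1a, Tuba1b and Tuba1c. Tubb5 rose by 2.32 ± 0.57 log2 units at day 2 (limma adjusted p = 0.0269).

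Tubb6 was a minor isotype in control and had the largest change of the 10 genes. It stood at 4.72 and 4.74 FPKM at day 14, at 39.3, 37.2, 120.3 and 125 FPKM at day 2 and at 4.72 and 5.32 FPKM in control. Day 2 replicates 3 and 4 were close to each other and well above replicates 1 and 2, which were themselves well above the controls. Tubb6 rose by 3.53 ± 0.53 log2 units (limma adjusted p = 0.00569), which is 11.6-fold on the log2(FPKM + 1) scale.

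Tubb2a and Tubb2b had the opposite order among the day 2 libraries. Tubb2a stood at 14.1 and 13.3 FPKM at day 14, at 389, 273, 54.3 and 113 FPKM at day 2 and at 35.2 and 43.1 FPKM in control. Its neighbour Tubb2b stood at 0.685 and 0.380 FPKM at day 14, at 16.7, 26.8, 1.59 and 5.12 FPKM at day 2 and at 0.719 and 0.799 FPKM in control. For both genes day 2 replicates 1 and 2 were the high libraries and replicate 3 the lowest of the group, and the day 2 libraries did not overlap the controls. Neither passed the test at day 2, with log2 changes of 2.01 ± 0.69 for Tubb2a (limma adjusted p = 0.0714) and 2.42 ± 0.83 for Tubb2b (limma adjusted p = 0.07). Tubb2b amounted to 4.86% and 2.85% of Tubb2a at day 14, between 2.92% and 9.82% at day 2 and 2.04% and 1.85% in control. The day 14 and control shares rest on Tubb2b levels under 1 FPKM. Whether reads of these near-identical neighbours were assigned correctly was not tested.

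Actb, often used as a reference gene for other measurements, was the most abundant of the 10 genes in every library group. It stood at 222 and 271 FPKM at day 14, at 1003, 504, 406 and 547 FPKM at day 2 and at 202 and 174 FPKM in control. Day 2 replicate 1 was the high library, and all 4 were above both other groups. Actb rose by 1.62 ± 0.36 log2 units at day 2 (limma adjusted p = 0.0196), to 615 ± 265 FPKM at day 2 (SD, n = 4) against 188 ± 19.7 FPKM in control (SD, n = 2).

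Actg1 stood at 21.7 and 21.0 FPKM at day 14, at 182, 73.0, 125 and 217 FPKM at day 2 and at 35.4 and 26.6 FPKM in control. Replicates 1 and 4 were the high day 2 libraries. Actg1 rose by 2.13 ± 0.41 log2 units at day 2 (limma adjusted p = 0.0122).

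**Figure D1:**
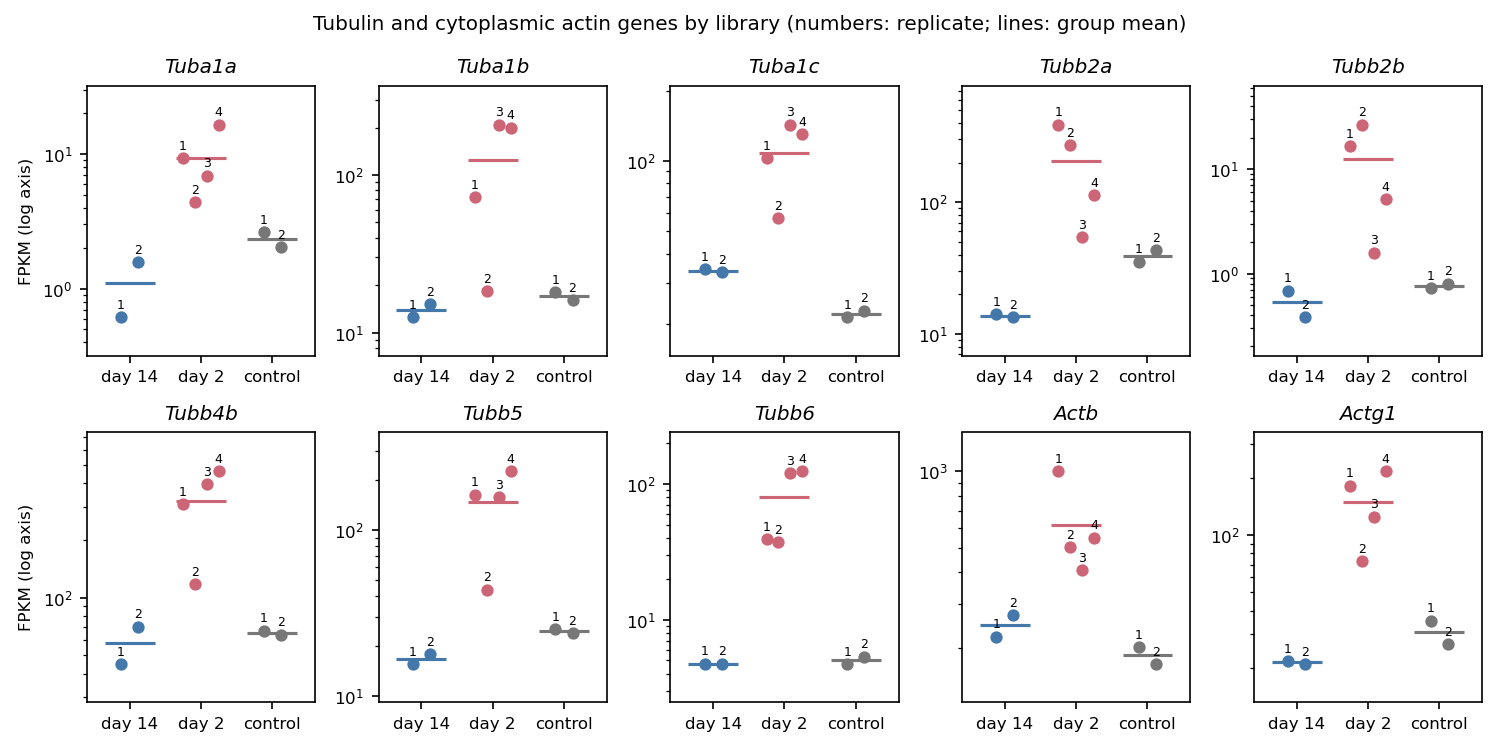
FPKM of each of the 10 genes (log axis) in the 2 day 14, 4 day 2 and 2 control libraries, with replicate numbers beside the points and lines at group means. Day 2 libraries lie above both other groups for every gene, and replicates 3 and 4 are high for Tuba1b and Tubb6 while replicates 1 and 2 are high for Tubb2a and Tubb2b.

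For day 2 against control, 7 of 10 members rose and none fell, beside 9.72% of all tested genes called higher, 11.5% called lower and 21.2% called in either direction. The members not called were Tuba1b, Tubb2a and Tubb2b, which had the 3 largest standard errors. Every day 2 library exceeded every control library for 10 of 10 members, which held for 26.1% of all tested genes, while 25.4% lay lower without overlap and 51.5% were apart in either direction. Tubb2b passed the filter through its day 2 levels alone, so its place in this count was favoured by the filter. The median log2 change was 2.15 over the members and 0.05 over all tested genes. The median describes these members and was not tested.

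The calls depended on single libraries more than the changes did. The member calls were lost without control replicate 1 or control replicate 2, as were most calls over all genes. A single control library then remained, so only the sizes of the changes are given. Tubb6 was then at 3.46 and 3.61 log2 units, against 3.53 with all libraries, and Tubb5 at 2.36 and 2.27, against 2.32. Without day 2 replicate 1 the calls of Tuba1a, Tubb4b and Tubb5 were lost and 4 remained, with Tubb4b at 2.07 log2 units against 2.11 with all libraries. Over all genes 1750 of 12156 tested were then called, against 2620 of 12340 with all libraries. Without day 2 replicate 2 Tuba1b was called at 3.02 log2 units (limma adjusted p = 0.0077), and without day 2 replicate 3 Tubb2a and Tubb2b were called at 2.53 and 3.04 log2 units (limma adjusted p = 0.0119 and 0.0108). Calls over all genes numbered 2870 and 2971 in these fits. Tubb2b passed the filter through day 2 libraries alone, and replicate 3 held its lowest day 2 level. Its call without that replicate was therefore favoured by the filter. Tuba1a also lost its call without either day 14 library. Day 14 libraries enter only the spread of this comparison, so the change stays at 1.49 log2 units whatever their values.

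Hepatectomy libraries also differed from control by transcript length and GC content. At the members' own length and GC content this trend, fitted over all genes, came to between 0.06 and 0.47 log2 units in the day 2 libraries. After its removal 5 of 10 members were called at day 2, with Tuba1a at 1.21 and Tubb4b at 1.71 log2 units no longer past the threshold (limma adjusted p = 0.0948 and 0.0605). Calls over all genes went down too, to 1739 of 12307 tested from 2620 of 12340.

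The comparison of day 14 with control asked whether the later livers differed from intact liver. Here 0 of 10 members passed limma's test and 0 had an unadjusted p under 0.05, beside 9.79% of all tested genes called in either direction, 5.21% higher and 4.58% lower. Log2 changes ran between -1.44 and 0.59, with a median of -0.25 over the members and 0.00 over all tested genes. Tubb2a was at -1.44 ± 0.80 log2 units, Tuba1a at -0.70 ± 0.50, Tubb5 at -0.53 ± 0.66 and Actg1 at -0.50 ± 0.48. Tuba1c was at 0.59 ± 0.41 and Actb at 0.39 ± 0.42. Standard errors ran between 0.41 and 1.00 log2 units, so the lack of calls does not show that levels were those of control. They rest on a spread shared over all 3 groups, day 2 among them. Tuba1b, with the standard error of 1.00, had SDs of 1.87 FPKM at day 14, 1.39 FPKM in control and 94.7 FPKM at day 2.

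Both day 14 libraries lay under both controls for 6 members and above both for 2, Tuba1c and Actb, beside 35.7% and 35.3% of all tested genes and 70.9% apart in either direction. Tubb4b and Tubb6 overlapped the controls. Tubb2a was called lower only when the fit held these 2 groups alone (limma adjusted p = 0.024). In that fit 2664 of 12340 tested genes were called, against 1208 with all groups. Of the 10 members 3 then had an unadjusted p under 0.05.

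Day 14 against day 2 asked how the livers differed between the times. It shares the day 2 libraries with the first comparison, so the values stand beside that one and are not independent of it. Of the 10 members 7 fell and none rose, beside 7.03% of all tested genes called lower, 9.09% higher and 16.1% in either direction. Tubb6 fell by 3.60 ± 0.53 log2 units (limma adjusted p = 0.00729), Tubb2a by 3.45 ± 0.69 (limma adjusted p = 0.0171), Tubb5 by 2.85 ± 0.57 (limma adjusted p = 0.0173) and Actg1 by 2.64 ± 0.41 (limma adjusted p = 0.00839). Tubb4b fell by 2.32 ± 0.52, Tuba1a by 2.197 ± 0.44 and Tuba1c by 1.56 ± 0.36 log2 units (limma adjusted p = 0.0228, 0.0167 and 0.0256). The members not called were Actb at -1.23 ± 0.36 log2 units (limma adjusted p = 0.0534), Tuba1b at -2.58 ± 0.87 (limma adjusted p = 0.0767) and Tubb2b at -2.62 ± 0.83 (limma adjusted p = 0.0636).

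Every day 14 library lay under every day 2 library for 10 of 10 members, which held for 20.4% of all tested genes, beside 21.2% higher without overlap and 41.6% apart in either direction. Here too the filter favoured the place of Tubb2b in the count. Without day 14 replicate 1, which left a single day 14 library, the member calls were lost, as were most calls over all genes. Tubb6 was then still at -3.60 log2 units. Leaving out day 14 replicate 2 also left a single day 14 library, so only sizes are given. Tuba1a, Tubb6 and Actg1 were then at -2.53, -3.60 and -2.61 log2 units. Tuba1c and Tubb4b lost their calls without day 2 replicate 1, and Tuba1b was called without day 2 replicate 2. Tubb2b and Actb were called without day 2 replicate 3, where the filter again favoured Tubb2b. Calls over all genes numbered 1249 of 12156 tested, 2472 of 12142 and 1834 of 12094 in these day 2 fits. With all libraries they were 1990 of 12340.

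**Figure D2:**
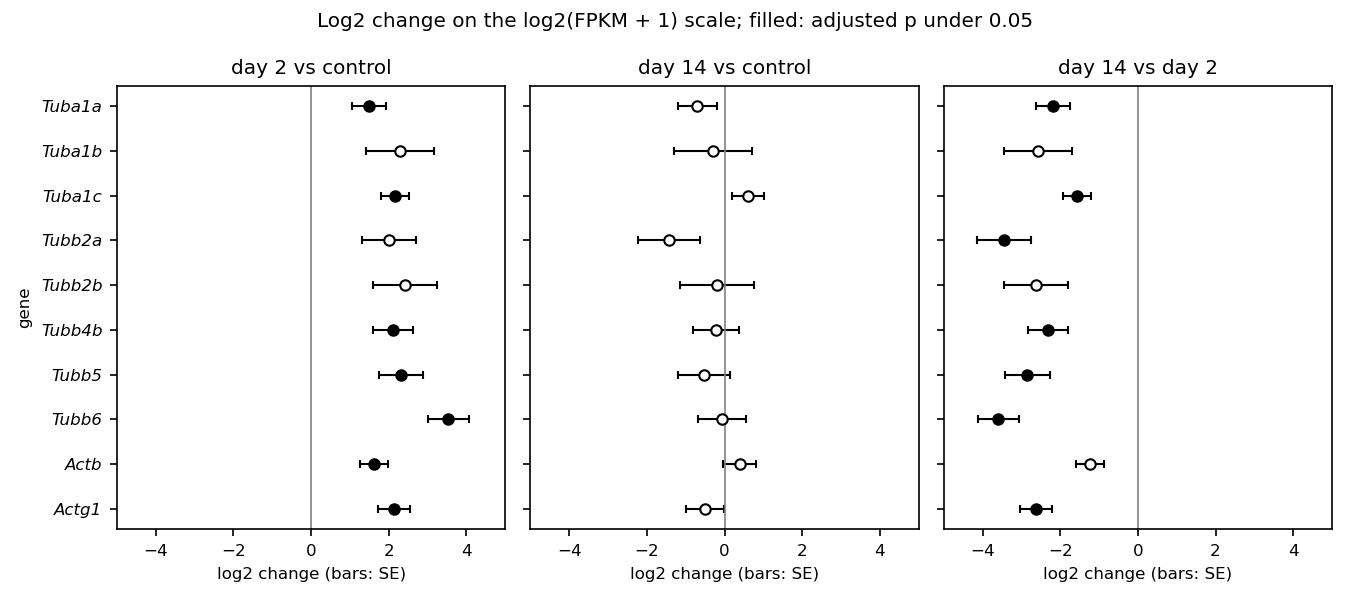
Log2 change (x axis, log2(FPKM + 1) scale, bars are SE) of each gene in 3 comparisons, with filled points for limma adjusted p under 0.05. All 10 points lie right of 0 for day 2 against control and left of 0 for day 14 against day 2, while for day 14 against control they lie between -1.44 and 0.59 with none filled.

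The order of levels was similar at the top of each group. At day 14 Actb averaged 247 ± 34.4 FPKM (SD, n = 2), followed by Tubb4b, Tuba1c, Actg1, Tubb5, Tuba1b and Tubb2a, and the ranges of Tuba1b and Tubb2a overlapped. At day 2 the order by mean was Actb, Tubb4b, Tubb2a, Actg1, Tubb5, Tuba1b, Tuba1c and Tubb6, with every neighbour in that order overlapping. In control it was Actb, Tubb4b, Tubb2a, Actg1, Tubb5, Tuba1c, Tuba1b and Tubb6, where Tubb2a and Actg1 overlapped. Tuba1a and Tubb2b were the lowest members in all 3 groups.

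The make-up of the tubulin pool differed between libraries as well as its size. Summed over the 8 tubulin members, FPKM was 128 and 157 at day 14, 1102, 578, 1088 and 1279 at day 2 and 175 and 178 in control. Tubb2a made up 17.6% and 12.5% of beta tubulin FPKM at day 14, 42.4%, 54.7%, 7.45% and 12.1% at day 2 and 26.4% and 31.4% in control. Day 2 replicates 1 and 2 stood above both controls in this share, and replicates 3 and 4 below both.

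Tubb6 made up 5.89% and 4.43% of beta tubulin FPKM at day 14, 4.28%, 7.47%, 16.5% and 13.3% at day 2 and 3.54% and 3.88% in control. For Tubb4b the shares were 56.1% and 66.0% at day 14, 33.7%, 23.7%, 54.0% and 49.6% at day 2 and 50.4% and 46.7% in control. Tubb5 held 8.80% in day 2 replicate 2 and between 16.8% and 24.4% in every other library.

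Of the summed FPKM of the 3 alpha tubulin members, which leaves out Tuba4a, Tuba1b made up 26.3% and 30.3% at day 14, 39.3%, 23.0%, 58.3% and 57.8% at day 2 and 42.9% and 39.3% in control. Tuba1c held most of the remainder, with 72.4% and 66.6% at day 14 and 50.8% and 55.7% in control. With Tuba4a and the low Tuba8 counted in, Tuba1b made up 8.24% and 9.08% of alpha tubulin FPKM at day 14, 15.9%, 8.68%, 42.7% and 44.7% at day 2 and 10.7% in both controls.

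The ratio of summed alpha to summed beta FPKM over the members was 0.592 and 0.467 at day 14, 0.200, 0.160, 0.493 and 0.371 at day 2 and 0.315 and 0.298 in control. Day 2 libraries lay on both sides of the controls in this ratio. With Tuba4a and Tuba8 in the alpha sum, the ratio was 1.89 and 1.56 at day 14, 0.494, 0.424, 0.673 and 0.480 at day 2 and 1.26 and 1.09 in control. By that sum all day 2 libraries lay below both controls and both day 14 libraries above them.

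The ratio of Actb to Actg1, which does not depend on the scaling of a library, was 10.2 and 12.9 at day 14, 5.52, 6.90, 3.25 and 2.52 at day 2 and 5.70 and 6.54 in control. The day 14 libraries had the highest ratios, and the day 2 libraries spanned the controls. By an exact two-sided permutation test over libraries p was 0.133 for day 14 against day 2, 0.333 for day 14 against control and 0.333 for day 2 against control. The smallest p these designs allow is 0.0667 with 4 against 2 libraries and 0.333 with 2 against 2.

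**Figure D3:**
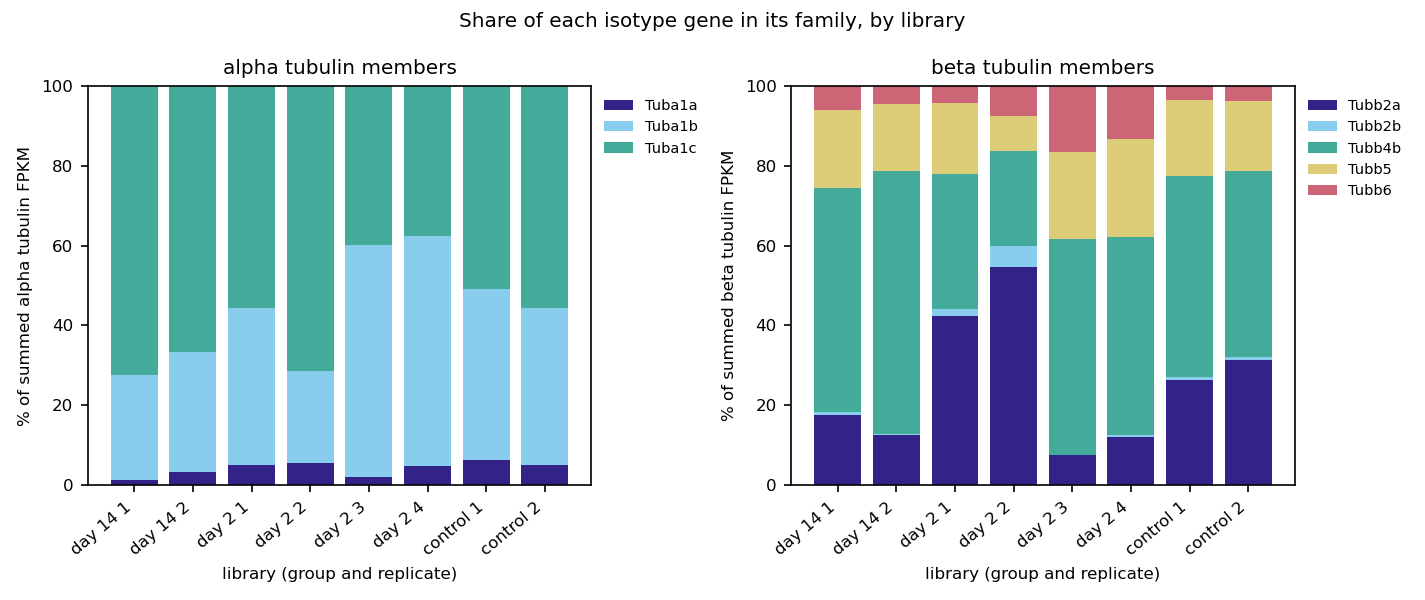
Share of each gene in the summed FPKM of the alpha tubulin members (left) and beta tubulin members (right) in each library, in percent. Tubb2a and Tubb2b together reach 60.0% of beta tubulin in day 2 replicate 2 and 7.66% in day 2 replicate 3.

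The split among the day 2 libraries ran alongside other markers. The summed level of 8 mitotic genes (Mki67, Top2a, Ube2c, Cdk1, Birc5, Ccnb1, Cdc20 and Plk1) was 10.9 and 13.0 FPKM at day 14, 3.76, 2.24, 586 and 820.5 FPKM at day 2 and 9.99 and 12.8 FPKM in control. Replicates 3 and 4, high for these genes, were also the high libraries for Tuba1b and Tubb6 and the low ones for Tubb2a and Tubb2b. The level of Tubb6 in day 2 replicates 1 and 2, at 39.3 and 37.2 FPKM, was above the controls, while their mitotic sums were below them. Against the mean of the controls Tuba1b was at 2.02 log2 units in replicate 1, whose mitotic sum was also below control, and at 0.10 in replicate 2.

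All 10 leukocyte markers passed the filter. They summed to 60.7 and 132 FPKM at day 14, 240.4, 376, 139 and 114 FPKM at day 2 and 114 and 97.9 FPKM in control, highest in the libraries that were high for Tubb2a. Much of this sum came from S100a8 and S100a9, genes of neutrophils. Without them it was 49.7 and 69.9 FPKM at day 14, 122, 114, 68.3 and 86.9 FPKM at day 2 and 111 and 91.8 FPKM in control, so that day 2 libraries lay on both sides of the controls. At day 2 against control S100a8 and S100a9 were called higher and Lcp1 lower, at -1.05 ± 0.28 log2 units (limma adjusted p = 0.0321), and the other 7 markers were not called. The 7 stellate and myofibroblast markers, Acta2 among them, summed to 12.2 and 13.9 FPKM at day 14, 98.0, 15.8, 48.8 and 114 FPKM at day 2 and 28.02 and 27.9 FPKM in control. This sum was lowest in day 2 replicate 2, as were Tubb4b, Tubb5 and Actg1 within that group. In day 2 replicate 1 most of it came from Tagln and Acta2, at 51.9 and 21.7 FPKM. Col1a1, Col3a1 and Des lay above both controls there too, while Lrat and Reln, at 1.17 and 5.62 FPKM, lay below both. None of the 7 was called at day 2 against control. The 5 endothelial markers summed to 21.5 to 39.7 FPKM at day 14, 16.2 to 61.1 FPKM at day 2 and 69.9 to 74.1 FPKM in control. For the 5 Kupffer cell markers the sums were 41.8 to 42.7 FPKM at day 14, 31.4 to 93.3 FPKM at day 2 and 76.6 to 93.3 FPKM in control. Cholangiocyte markers, of which 4 of 5 passed the filter, summed to 105 to 122 FPKM at day 14, 46.7 to 126 FPKM at day 2 and 61.3 to 75.2 FPKM in control, and neither of the 2 mesothelial markers passed it. Most of the cholangiocyte sum came from Spp1, at 99.2 and 117 FPKM at day 14, 42.7 to 118 FPKM at day 2 and 58.0 and 71.3 FPKM in control. The part of any of these cell types in the tubulin and actin levels was not tested. No listed marker was at 0 in all libraries.

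**Figure D4:**
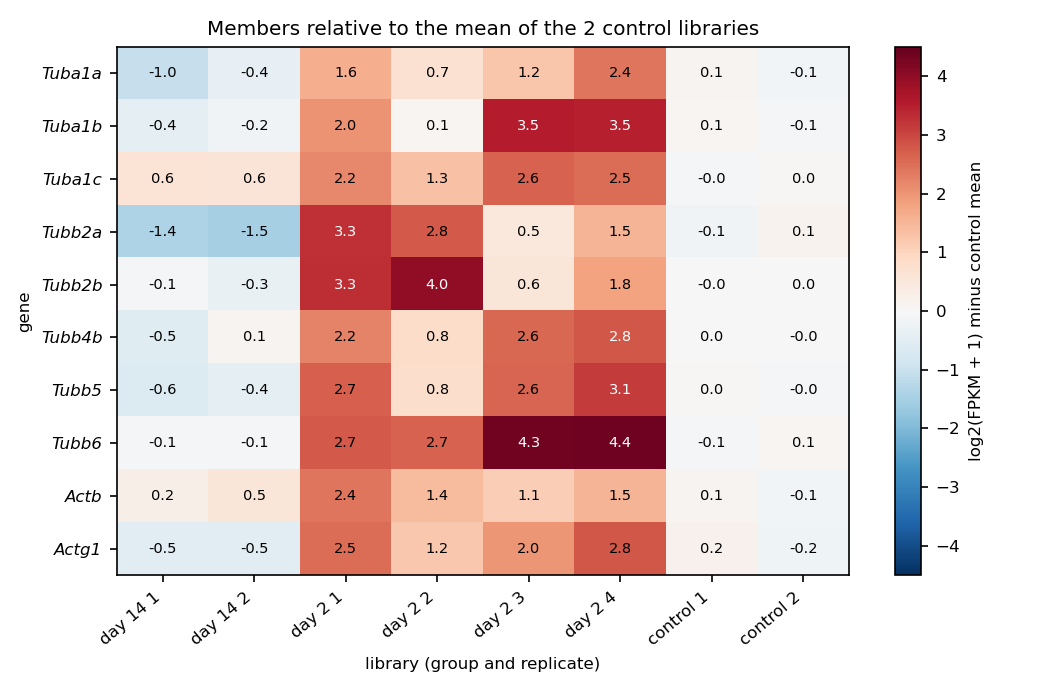
Log2(FPKM + 1) of each gene minus its mean over the 2 control libraries, by library. Day 2 columns are positive for all 10 genes, with 4.3 and 4.4 for Tubb6 in replicates 3 and 4 and 3.3 and 2.8 for Tubb2a in replicates 1 and 2.

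Relatives of the 10 genes did not all share these levels. Tuba4a, the most abundant alpha tubulin of control liver and no member of the set, stood at 102 and 113 FPKM at day 14, 265, 125, 124 and 96.4 FPKM at day 2 and 126 and 109 FPKM in control. Its groups overlapped, and it did not pass the test at day 2 (0.27 ± 0.38 log2 units, limma adjusted p = 0.635). With Tuba4a and Tuba8 counted in, Tuba4a made up 67.1% and 67.8% of alpha tubulin FPKM at day 14, 21.5% to 59.1% at day 2 and 74.9% and 72.5% in control.

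Tuba8, a divergent alpha tubulin, stood at 2.45 and 3.70 FPKM at day 14, 4.56, 6.70, 7.72 and 5.03 FPKM at day 2 and 0.236 and 0.389 FPKM in control. It rose by 2.39 ± 0.25 log2 units at day 2 and by 1.62 ± 0.29 at day 14, in both with no overlap with the controls (limma adjusted p = 0.00213 and 0.0269). Both control levels were under 1 FPKM, so Tuba8 passed the filter only through libraries taken after hepatectomy. A difference from control was thus built into its inclusion. Tubg1, the gamma tubulin that nucleates microtubules, did not pass at day 2 (0.75 ± 0.42 log2 units, limma adjusted p = 0.228). The smooth muscle actin gene Acta2 stood at 0.753 and 0.717 FPKM at day 14, 21.7, 0.995, 2.09 and 12.7 FPKM at day 2 and 0.660 and 1.00 FPKM in control, and did not pass the test (limma adjusted p = 0.168). Of 12 other tubulin genes 6 passed the filter, with 1, Tuba8, called at day 2, and Tuba3b and Tubal3 were listed at 0 in all libraries. Only 1 of 3 pseudogenes named after these families was above 0, at no more than 1.31 FPKM.

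Lists of genes that fold, bind or modify tubulin and actin were examined at day 2 against control, beside the 9.72% of all tested genes called higher and 11.5% called lower. Of 22 tubulin folding and assembly factors 5 rose and none fell, with a median of 0.57 log2 units against 0.05 over all tested genes. Tbcb, a cofactor that takes part in folding alpha tubulin, averaged 68.3 ± 34.97 FPKM at day 2 (SD, n = 4) and 13.6 ± 0.313 FPKM in control (SD, n = 2) and rose by 2.09 ± 0.45 log2 units. Cct3, a subunit of the chaperonin that folds both tubulin and actin, rose by 1.14 ± 0.27, and Pfdn1, a subunit of the prefoldin that delivers them to it, by 1.20 ± 0.22 (limma adjusted p = 0.0177, 0.0222 and 0.0109).

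Microtubule binding and dynamics genes were called higher in 2 of 20 and lower in none, with a list median of 0.01 log2 units. Tacc2, a centrosome and microtubule binding protein gene, was among them at 1.25 ± 0.29 log2 units (limma adjusted p = 0.0208). In 11 measured tubulin modifying enzymes 1 fell and none rose. This was Atat1, which acetylates alpha tubulin inside microtubules, at 3.07 ± 1.89 FPKM at day 2 against 13.5 ± 1.18 FPKM in control (log2 change -1.98 ± 0.48, limma adjusted p = 0.0256). At day 14 Atat1 averaged 17.4 ± 7.75 FPKM (SD, n = 2), with a range that overlapped control.

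Actin monomer binding and turnover genes rose in 7 of 19 and fell in 1, with a median of 0.23 log2 units. Tmsb10, a thymosin that holds actin monomers, averaged 106 ± 37.2 FPKM at day 2 and 21.2 ± 0.861 FPKM in control and rose by 2.21 ± 0.32 log2 units. Capg, which caps filament ends, and Coro1c, a coronin that binds filaments, rose by 1.75 ± 0.25 and 1.60 ± 0.21 (limma adjusted p = 0.00508, 0.00524 and 0.00402). Tmsb10 was also called at day 14 against control, at 1.75 ± 0.36 log2 units (limma adjusted p = 0.0328). It was the only gene of its list called higher there, while 4 of 19 were called lower and the median was -0.34 log2 units. Over all tested genes 5.21% were called higher and 4.58% lower in that comparison. Of 9 subunits of the Arp2/3 complex, which nucleates branched filaments, 2 rose at day 2, Arpc1b by 1.58 ± 0.23 and Arpc3 by 1.16 ± 0.24 log2 units.

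Tropomyosins, myosin chains and crosslinkers rose in 8 of 22 and fell in 2. Tpm1, a tropomyosin that lies along actin filaments, rose by 1.89 ± 0.31 log2 units, and Myl12b, a regulatory light chain of non-muscle myosin, by 1.26 ± 0.21. Myl12b was also called at day 14 against control, at 1.12 ± 0.24 (limma adjusted p = 0.0339). No other gene of its list was called higher there, while 2 of 22 were called lower and the median was -0.20 log2 units. Over all tested genes these shares were 5.21% higher and 4.58% lower. Rdx, radixin, which ties actin to the bile canalicular membrane, fell by 1.67 on the log2 scale, to 18.03 ± 4.51 FPKM at day 2 against 58.2 ± 2.25 FPKM in control (limma adjusted p = 0.00642). At day 14 Rdx was at -1.64 ± 0.30 log2 units against control (limma adjusted p = 0.0273).

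Known targets of SRF and MRTF outside the 10 genes, some of which stand in other lists too, rose in 8 of 18 measured and fell in 1. Junb and Fos, immediate early transcription factor genes, rose by 3.00 ± 0.50 and 2.07 ± 0.21 log2 units (limma adjusted p = 0.00784 and 0.00182). Intermediate filament and plakin genes rose in 5 of 11 and fell in none, led by Krt18 and Krt8, the keratin pair of hepatocytes, at 3.03 ± 0.31 and 2.72 ± 0.43, and Lmna, which encodes the lamins A and C, at 2.22 ± 0.19 log2 units. With all libraries the calls over these 10 lists were 38 higher and 5 lower. Most of them were lost without control replicate 1 or control replicate 2, as were most calls over all genes. Without day 2 replicate 1 the calls over the lists were 30 higher and 4 lower. Over all genes 783 were then called higher and 967 lower of 12156 tested, against 1200 and 1420 of 12340 with all libraries. Microtubule binding genes then had 1 call, modifying enzymes 0 and intermediate filaments 3. Genes that stand in several lists are counted in each.

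**Figure D5:**
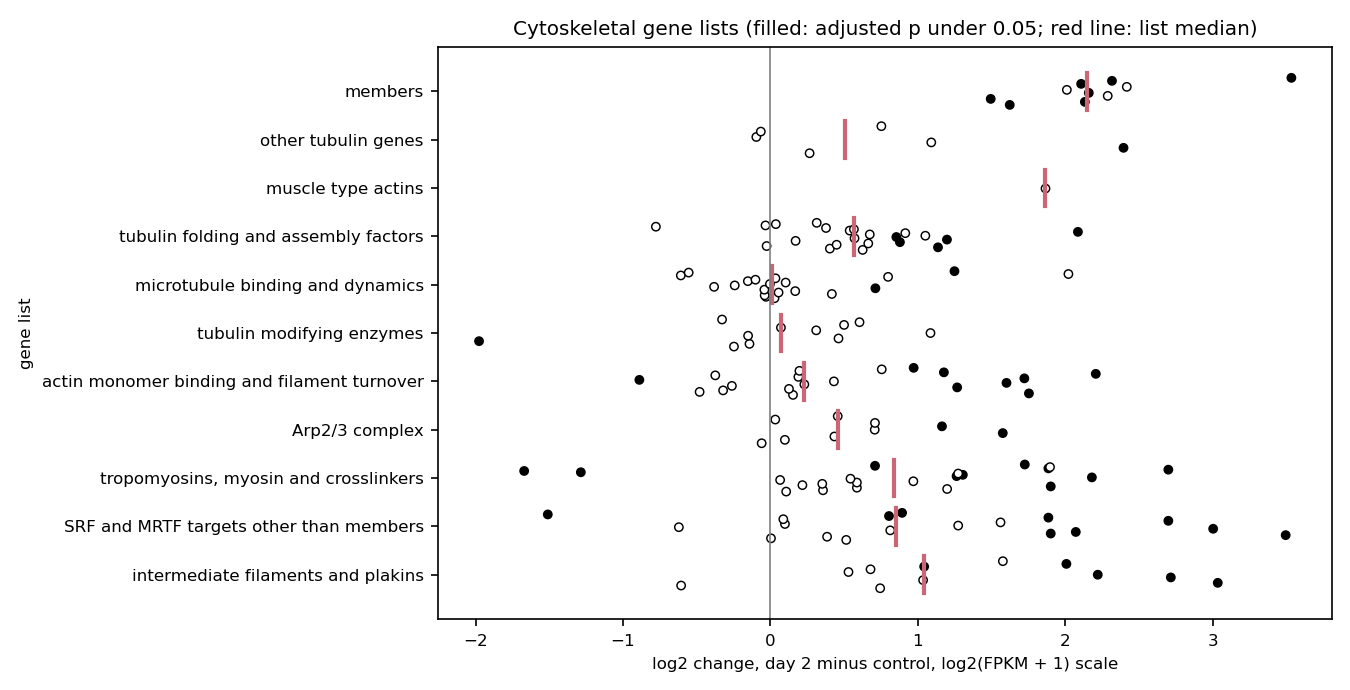
Log2 change of each measured gene at day 2 against control (x axis, log2(FPKM + 1) scale) in the 10 members and in 10 lists of cytoskeletal genes, with filled points for limma adjusted p under 0.05 and red lines at list medians. The member median lies at 2.15 and the list medians between 0.01 and 1.04, apart from muscle type actins, where Acta2 was the single gene measured, at 1.86.

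Promoter windows around each gene's start, from RefSeq on GRCm38.p6, were at hand for 7 of the 10 genes: Tuba1a, Tuba1b, Tuba1c, Tubb2a, Tubb4b, Tubb5 and Actg1. They were searched for the CArG box, the sequence bound by SRF, for CCAAT, bound by the factor NF-Y, for the GC box (GGGCGG) bound by Sp factors, and for TTTGAA, a motif of cell cycle promoters, all on both strands. The CArG box was found in 1 of the 7, Actg1, and in 1.64% of 32544 distinct windows. CCAAT was found in 5 of the 7 and in 37.4% of windows, GGGCGG in 6 of the 7 and in 35.9%, and TTTGAA in 1 of the 7, Tubb4b, and in 17.8%. The Actg1 window, chr11:120348446-120348745 on the minus strand, is printed 5′ to 3′ with the CArG box in capitals, since it is the one member window that holds this box.
Actg1: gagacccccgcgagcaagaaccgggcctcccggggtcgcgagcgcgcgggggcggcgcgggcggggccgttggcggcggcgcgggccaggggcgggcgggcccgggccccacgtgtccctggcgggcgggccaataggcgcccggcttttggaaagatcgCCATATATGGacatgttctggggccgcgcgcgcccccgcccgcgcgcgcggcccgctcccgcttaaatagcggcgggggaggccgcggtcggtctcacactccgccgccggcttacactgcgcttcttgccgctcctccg
A match is a description of the letters and not of binding.

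Likeness of pattern was measured as the root mean square difference of log2 values over the 8 libraries after centring each gene on its mean. Among the members the closest pairs were Tubb4b with Tubb5 at 0.28, Tubb5 with Actg1 at 0.31 and Tubb4b with Actg1 at 0.35 log2 units. Tubb2a with Tubb2b was at 0.56 and Actb with Actg1 at 0.71. Outside the members, the genes closest to Actb were Hmox1, haem oxygenase, at 0.22, Plpp5 at 0.25, Anxa5, annexin A5, at 0.26 and Cbr1, a carbonyl reductase, at 0.26. Closest to the mean profile of the 8 tubulins were the small GTPase gene Rhoc at 0.29, the matrix glycoprotein gene Emilin1 at 0.34, the tetraspanin gene Cd9 at 0.34 and Syt12, a synaptotagmin, at 0.35. Rhoc stood at 8.62 and 7.96 FPKM at day 14, 40.04, 24.5, 37.9 and 50.95 FPKM at day 2 and 7.14 and 10.2 FPKM in control, with the lowest day 2 value in replicate 2, as in Tubb4b and Tubb5.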

How the data were processed

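The authors deposited 1 table of gene-level FPKM with a column for each of the 8 libraries. Per the submitters' processing notes, Cufflinks 2.2.1, HISAT2 2.10, DESeq2 and HTSeq were used, with mm9 and GRCm38 as builds, and the design text names BWA and TopHat too; which of them made the table is not given in the sources used here. Libraries were grouped by label. The log2 of FPKM plus 1 was analysed for genes reaching 1 FPKM in 2 or more libraries. A model of 3 group means was fitted by limma 3.58.1 (R 4.3.3) using its mean-variance trend (5 residual degrees of freedom, 3.23 prior). A call means a p under 0.05 after Benjamini-Hochberg adjustment within a comparison. Fold changes on this scale understate changes of low genes. The members, lists and tests were chosen with earlier results of these data known. Named genes were all members, up to 3 called genes of lowest adjusted p per list at day 2 or else the most abundant one, and the 4 closest in pattern with a mean of at least 5 FPKM; Tuba4a and Tubg1 were added after their values were seen. One gene that this rule names is not reported here. Transcript lengths and coding sequences came from GENCODE on GRCm38, promoters from RefSeq. Alternatives were a pseudocount of 0.1, no filter, a 5 FPKM filter, quantile or median-ratio scaling, the 2 compared groups alone, no trend, a 2-fold minimum, leaving out each library and removal of the length and GC trend with splines of 4 degrees of freedom. The fit was tested on simulated data. Figures were drawn with matplotlib 3.10.9.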

Additional observations from a re-analysis of the deposited data

How the results depend on the processing

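No paired analysis was possible because the numbers in the titles are shared by fewer than 2 libraries between any pair of groups. Direction of the members at day 2 against control and at day 14 against day 2 held under all 17 alternatives, many of which could not have reversed it. The filters, the 2 groups alone, no trend and the 2-fold minimum leave the change as it was. So does leaving out a library of the third group. Groups that do not overlap also keep their direction when 1 library is left out or the pseudocount is changed. Members called at day 2 against control numbered 7, but 4 with no filter and 0 with a 2-fold minimum (5 at an unadjusted p under 0.05), and 0 to 9 when 1 library was left out. Members called at day 14 against day 2 numbered 7, but 0 with a 2-fold minimum (7 at an unadjusted p under 0.05), and 0 to 9 when 1 library was left out. Members called at day 14 against control numbered 0, but 1 with the 2 compared groups alone, and 0 when any library was left out. There Tubb4b ran from -0.53 to 0.11 log2 units when 1 library was left out, the upper end without day 14 replicate 1, and Tubb6 from -0.14 to 0.0034, the upper end without control replicate 2. Over all genes 2620 were called at day 2 against control, but 88 with a 2-fold minimum and 1739 with the length and GC trend removed, and 92 to 2971 when 1 library was left out. For day 14 against control these were 1208, but 691 with no filter, 2664 with the 2 groups alone, 1 with a 2-fold minimum and 508 with the trend removed, and 0 to 2097. For day 14 against day 2 they were 1990, but 982 with the 2 groups alone and 42 with a 2-fold minimum, and 17 to 2472. With no filter, calls over all genes at day 2 against control were 2047 of 21890 tested, against 2620 of 12340 with the filter. The cause was not tested. The difference in the log2 ratio of alpha to beta tubulin members at day 2 against control ran from -0.43 to 0.12 when 1 library was left out. With Tuba4a and Tuba8 in the alpha sum, an alternative added after the data had been seen, it ran from -1.34 to -1.10, so its size and the stability of its sign depend on which genes are summed. Median-ratio and quantile scaling moved the median of all genes by at most 0.03 log2 units. Alternatives on the gene lists were added after the data had been seen. Read counts are unknown, so no counting error can be given for low genes such as Tubb2b.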
